A study of Mus musculus with 6 samples.

Results

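Long intergenic noncoding RNAs (lincRNAs) were analysed in RNA-seq of whole ovaries from mice in which Trim28 is deleted in somatic cells of the gonad. The loci are the rows of the deposited table with the biotype lincRNA and at least 60 raw counts summed over the 6 libraries, without the imprinted transcripts Meg3, Mirg and H19. Rian was also to be left out but is not among the lincRNA rows. This gave 733 loci of 3182 lincRNA rows and of 34461 genes in the table. The loci were therefore selected on their measured total, which counts both groups together. The 3 control and 3 Trim28 cKO libraries were made from ovaries of mice aged 7 months on a mixed 129SV and C57BL6/J background. Trim28 cKO mice were Trim28 flox/flox; Nr5a1:Cre, a transgene that acts in somatic cells of the gonad. Controls were Trim28 flox/flox without Cre or Trim28 flox/+ with it, and the sources used here do not say which of these gave each library. Whole ovaries also hold oocytes and blood-derived cells, which this Cre does not target.

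LincRNAs are transcribed from their own promoters between protein-coding genes, and are mostly spliced and polyadenylated like mRNAs. Some act in the nucleus, as Xist does in silencing an X chromosome, others serve as precursors of microRNAs or small nucleolar RNAs, and most have no known role. They tend to be low in abundance and more restricted to a cell type than mRNAs. TRIM28 is a co-repressor that KRAB zinc finger proteins bring to chromatin, where it recruits a histone methyltransferase. Of the 733 loci, 402 carry a Gm name and 211 a Rik name, the provisional symbols of transcripts with no named function. No role is given here for these.

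The start regions of 8 loci described below are shown, so that loci that rose can be set beside loci that fell. They were picked after values and motif matches were seen, from 11 windows searched, and are not a sample of the loci. The 3 windows not shown are those of BB123696 and 4930546K05Rik, with no match, and of Miat, with 1 match to GGGCGG. Each sequence is the 300 bases from 250 before to 50 after the RefSeq start (GRCm38.p6), 5′ to 3′ on the strand of the RNA. Capitals mark matches on either strand to the NR5A1 motif AAGGTCA and the GATA motif AGATAA. They also mark the TATA motif, spelled TATAAA. The last motif marked is the GC box GGGCGG, bound by SP and KLF factors. The forkhead motif TGTTTAC was also searched, as was the SOX motif spelled ACAATGG, and neither has a match in these windows. No matches overlapped each other here. 2810429I04Rik, Gm6093, 2410018L13Rik, 2810032G03Rik and Gm20554 were higher in Trim28 cKO ovaries and Gm31135, Gm15767 and C86187 were lower.
2810429I04Rik: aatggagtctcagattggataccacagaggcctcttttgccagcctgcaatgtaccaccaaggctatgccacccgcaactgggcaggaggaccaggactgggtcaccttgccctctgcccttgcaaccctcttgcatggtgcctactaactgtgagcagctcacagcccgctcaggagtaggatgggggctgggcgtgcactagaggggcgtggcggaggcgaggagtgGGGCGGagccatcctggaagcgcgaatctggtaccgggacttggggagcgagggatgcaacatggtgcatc
Gm6093: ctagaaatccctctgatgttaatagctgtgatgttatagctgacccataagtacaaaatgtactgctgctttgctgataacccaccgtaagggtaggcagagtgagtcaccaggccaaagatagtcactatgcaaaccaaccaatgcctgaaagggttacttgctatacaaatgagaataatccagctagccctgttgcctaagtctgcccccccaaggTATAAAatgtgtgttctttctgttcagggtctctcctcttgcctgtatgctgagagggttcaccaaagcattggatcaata
2410018L13Rik: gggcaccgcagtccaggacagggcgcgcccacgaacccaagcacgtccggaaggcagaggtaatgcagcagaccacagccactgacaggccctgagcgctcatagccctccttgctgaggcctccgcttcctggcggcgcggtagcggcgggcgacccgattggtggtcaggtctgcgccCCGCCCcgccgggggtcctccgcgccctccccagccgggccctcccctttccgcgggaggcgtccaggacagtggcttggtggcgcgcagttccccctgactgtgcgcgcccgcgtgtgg
2810032G03Rik: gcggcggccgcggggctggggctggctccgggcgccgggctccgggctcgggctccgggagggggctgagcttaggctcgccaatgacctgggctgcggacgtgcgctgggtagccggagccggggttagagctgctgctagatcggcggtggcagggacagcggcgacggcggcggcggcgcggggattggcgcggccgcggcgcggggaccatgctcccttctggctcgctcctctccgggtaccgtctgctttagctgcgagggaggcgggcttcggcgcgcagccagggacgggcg
Gm20554: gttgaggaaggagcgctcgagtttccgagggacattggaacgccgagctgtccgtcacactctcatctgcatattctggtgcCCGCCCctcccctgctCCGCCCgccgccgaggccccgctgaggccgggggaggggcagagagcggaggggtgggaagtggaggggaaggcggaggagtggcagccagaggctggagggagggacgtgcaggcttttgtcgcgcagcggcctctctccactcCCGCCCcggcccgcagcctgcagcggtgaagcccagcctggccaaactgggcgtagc
Gm31135: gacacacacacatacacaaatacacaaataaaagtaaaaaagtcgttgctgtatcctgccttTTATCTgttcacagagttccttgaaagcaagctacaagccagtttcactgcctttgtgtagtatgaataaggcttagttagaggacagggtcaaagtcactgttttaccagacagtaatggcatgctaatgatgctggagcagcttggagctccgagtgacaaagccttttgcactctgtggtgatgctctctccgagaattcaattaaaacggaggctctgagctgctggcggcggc
Gm15767: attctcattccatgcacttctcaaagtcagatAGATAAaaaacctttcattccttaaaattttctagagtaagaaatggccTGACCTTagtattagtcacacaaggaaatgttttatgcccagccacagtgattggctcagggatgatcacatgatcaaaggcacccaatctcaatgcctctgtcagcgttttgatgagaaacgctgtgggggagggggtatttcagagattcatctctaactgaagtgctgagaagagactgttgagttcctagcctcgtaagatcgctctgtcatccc
C86187: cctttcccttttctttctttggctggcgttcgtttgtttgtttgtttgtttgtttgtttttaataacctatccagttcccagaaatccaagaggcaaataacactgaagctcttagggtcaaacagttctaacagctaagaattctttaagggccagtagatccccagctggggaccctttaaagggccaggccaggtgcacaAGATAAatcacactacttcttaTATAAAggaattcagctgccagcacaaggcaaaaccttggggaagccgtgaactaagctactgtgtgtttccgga

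The windows lie on chromosome 13 at 3477982 to 3478281 (2810429I04Rik, plus strand), 33569268 to 33569567 (Gm6093, minus strand) and 72628515 to 72628814 (Gm20554, minus strand), on chromosome 12 at 23010194 to 23010493 (2410018L13Rik, minus strand) and 5375470 to 5375769 (2810032G03Rik, plus strand), on chromosome 8 at 8484679 to 8484978 (Gm31135, minus strand), on chromosome 6 at 147243752 to 147244051 (Gm15767, minus strand) and on chromosome 7 at 46975862 to 46976161 (C86187, minus strand). TATAAA began 31 bases before the start of Gm6093 and 25 bases before that of C86187. It was present in 9.62% of the 15094 RefSeq windows matched to genes of the table. Gm20554, the locus that faces Irx2, held 3 matches to GGGCGG, all as its reverse complement, and 52.1% of all windows held at least 1. 2410018L13Rik and 2810429I04Rik held 1 each, and 2810032G03Rik, which faces Klhl29, held no match to any of the motifs. Gm15767 held AAGGTCA in reverse, present in 4.05% of all windows, and a match to AGATAA, present in 8.22%. A match to letters is a description of the window and not a bound site.

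Across the loci, 712 passed the filter on low counts and were tested with edgeR in 1 fit over 18959 genes, with Benjamini-Hochberg adjustment over all of them. A call needed an adjusted p no higher than 0.05 and a log2 fold change above 1 or below -1. Of the 712, 131 rose in Trim28 cKO ovaries, 78 fell and 503 were not called. These are 18.4% and 10.96% of the loci tested, beside 13.7% higher and 8.03% lower among all genes tested. Without the fold limit, 142 loci were higher and 90 lower (19.9% and 12.6%), beside 20.2% and 16.8% of all genes, so the shares then lay below the background. Many calls came from loci that passed the filter in 1 group only, 51 of the 131 that rose and 28 of the 78 that fell. Such a locus had to differ to be tested. Among the 630 loci with a library over the filter in both groups, 80 rose and 50 fell, 12.7% and 7.94%, against 11.9% and 7.24% of all such genes. The share of called loci was thus near the background once both groups had to be measured. The median log2 fold change was 0.01 over the loci and 0.00 over all genes tested, and the middle 50% of the loci ranged from -0.52 to 0.93.

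**Figure D1:**
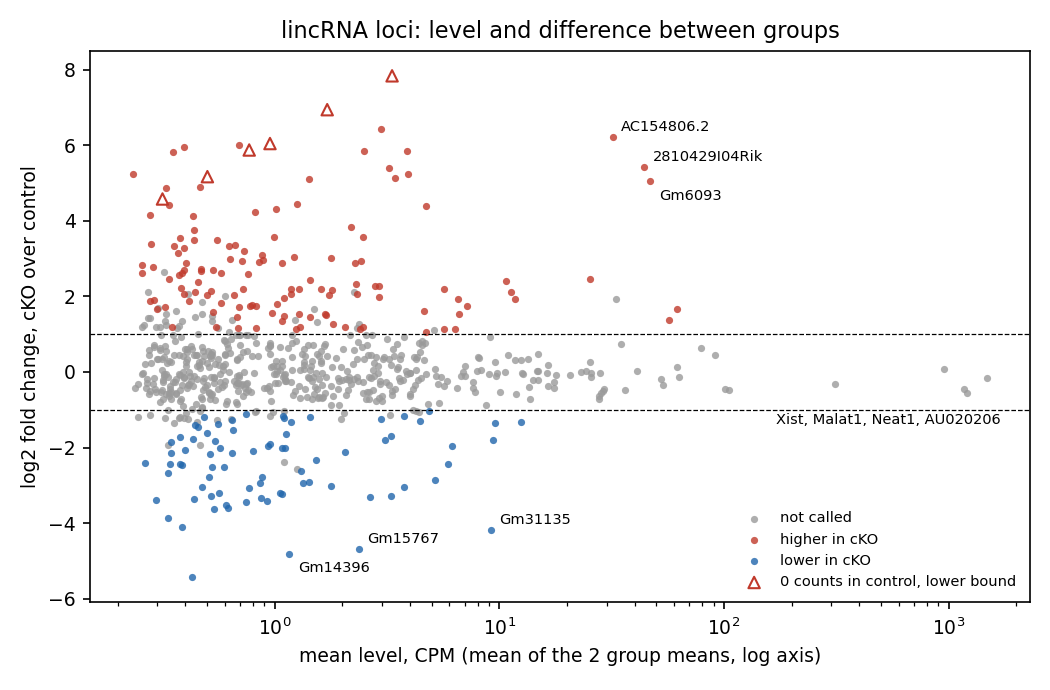
Each point is 1 tested lincRNA locus, with the mean of its group means in CPM on a log x axis and its log2 fold change, Trim28 cKO over control, on the y axis. Loci that rose (131) are red, loci that fell (78) blue and the 503 not called grey, dashed lines mark a log2 fold change of 1 in either direction, and open triangles stand at the lower bound for loci with 0 control counts. The loci of highest level lie between the lines, while AC154806.2, 2810429I04Rik and Gm6093 combine a high level with a large difference.

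The size of the differences ranged widely. Of the 131 loci that rose, 89 exceeded 2 on the log2 scale, 46 exceeded 3 and 29 exceeded 4. Of the 78 that fell, 49 lay below -2, 24 below -3 and 5 below -4. The groups did not overlap in 130 of the 131 and in all 78, which a call with 3 libraries per group nearly requires. Among all loci tested they did not overlap in 333 (46.8%), beside 52.8% of all genes tested. The exception among the risers was 9330175E14Rik, named after its values were seen, at 3.26, 8.25 and 3.34 CPM in control and 8.14, 12.4 and 35.1 CPM in Trim28 cKO libraries. Its log2 fold change of 1.92 became 1.07 without Trim28 cKO replicate 3 (adjusted p = 0.132), and the call was also lost without control replicate 1 or 3 or Trim28 cKO replicate 2. Among 333 loci with 60 to under 200 counts, 62 rose and 41 fell (18.6% and 12.3%), beside 15.8% and 9.99% of all genes of that depth. Among 262 with 200 to under 1000 counts, 51 rose and 29 fell (19.5% and 11.1%), below the 21.4% and 13.5% of all such genes. Among 117 with at least 1000 counts, 18 rose and 8 fell (15.4% and 6.84%), beside 11.4% and 6.02%. Called loci lay on every chromosome that held a locus, with 13 risers among 56 loci on chromosome 13, 12 among 66 on chromosome 5, and 2 among 13 on the X.

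Depth lay between 23615580 and 48508461 counts per library, lowest in control replicate 2. Trim28 itself was at 155, 178 and 155 CPM in control and 48.8, 55.6 and 71.2 CPM in Trim28 cKO libraries, a log2 fold change of -1.47 ± 0.15 (SE, adjusted p = 0.000663 in edgeR). Marker lists moved with the groups. All 14 macrophage markers rose, with summed levels of 526 to 622 CPM in control and 3443 to 6527 CPM in Trim28 cKO libraries, as did 12 of 15 Sertoli cell markers (948 to 1409 and 4902 to 8101 CPM). Of 18 oocyte markers 16 fell (453 to 947 and 128 to 177 CPM), as did all 10 of dividing cells, 7 of 14 of granulosa cells and 4 of 6 of the corpus luteum (6149 to 13977 and 2019 to 3201 CPM). Of the others, 4 of 9 steroidogenic, 2 of 8 surface epithelium, 3 of 9 lymphocyte, 1 of 8 smooth muscle and 1 granulosa marker rose, and 3 steroidogenic, 1 surface epithelium, 3 smooth muscle and 1 Sertoli marker fell, with none of 7 endothelial or 6 tested spermatogenic markers called. No marker was at 0 in a whole group. In whole ovaries, fewer cells of a type and less RNA per cell cannot be told apart, and the part of these shifts in the lincRNA results was not tested.

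The levels of the loci spanned a wide range. On the deposited signal per kb of transcript, the scale on which levels of different loci can be compared, the highest were Xist (mean 69897 over 6 libraries), Malat1 (68981), AU020206 (19555), Neat1 (18465), Gm37494 (7116), AI480526 (4110), AC161763.1 (2612), 1810058I24Rik (2413), 1700020I14Rik (2408) and 2810429I04Rik (1912). This signal divides by the median length of the annotated transcripts, only 625 bases for Xist and 656 for Malat1, so it overstates long RNAs that also have short annotated isoforms. The first 4 of these held 0.481 to 0.582% of all counts in control and 0.388 to 0.474% in Trim28 cKO libraries. All other loci together held 0.283 to 0.298% and 0.2999 to 0.3296%. The share of the first 4 was lower in every Trim28 cKO library than in any control library, and the share of the rest was higher. None of the 10 loci but 2810429I04Rik was called.

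Malat1, a nuclear speckle RNA, was at 1562, 1269 and 1501 CPM in control and 956, 1053 and 909 CPM in Trim28 cKO libraries. The groups did not overlap, and its log2 fold change of -0.57 ± 0.14 (adjusted p = 0.0164 in edgeR) did not pass the fold limit. Xist was at 1391, 1224 and 1425 CPM and at 739, 1221 and 999 CPM. Trim28 cKO replicate 2 nearly reached the lowest control, and the log2 fold change of -0.45 ± 0.20 was not significant (adjusted p = 0.115). Neat1, the scaffold of paraspeckles, varied widely within the control group, at 1662, 888 and 2124 CPM in control and 1323, 1640 and 1253 CPM in Trim28 cKO libraries (log2 fold change -0.15 ± 0.31, adjusted p = 0.734). AU020206 was at 791, 1256 and 747 CPM and at 1013, 835 and 1087 CPM. 1810058I24Rik went from 61.9 ± 1.93 to 96.5 ± 11.6 CPM (SD, n = 3), inside the fold limit (log2 fold change 0.64, adjusted p = 0.00431), and AI480526 went from 123 ± 11.4 to 87.4 ± 17.1 CPM (log2 fold change -0.49, adjusted p = 0.0481).

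2810429I04Rik combined a high level with a large difference. It lies on chromosome 13 at 3478230 to 3501393 (mm10, plus strand). It was at 1.74, 2.04 and 2.21 CPM in control and 89.6, 96.4 and 72.8 CPM in Trim28 cKO libraries. Every Trim28 cKO library was far above every control library, and the spread within each group was small. The log2 fold change was 5.43 ± 0.17, a 43.1-fold difference (adjusted p = 5.61e-05 in edgeR). Its nearest protein-coding gene, Gdi2, is 36670 bases away and had a log2 fold change of 0.04 (adjusted p = 0.744). Gm48530, on the minus strand and 179608 bases from Gdi2, was among the loci that gave no control counts.

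The 10 highest log2 fold changes, among called loci with groups that did not overlap and a group mean of at least 1 CPM, included 5 loci with 0 counts in all control libraries. Gm48530 was at 9.36, 5.96 and 4.66 CPM in Trim28 cKO libraries, from 776 counts. Against a floor of 3 counts over the control group it was at least 229-fold higher (adjusted p = 0.000624). Gm30717 was at 3.33, 4.75 and 2.20 CPM, at least 123-fold higher (adjusted p = 0.000941). Gm31181 was at 2.40, 2.35 and 0.962 CPM, at least 66.1-fold higher, and Gm30667 at 0.898, 1.76 and 1.97 CPM, at least 58.7-fold higher. Gm45571 was at 0.962, 1.48 and 0.565 CPM, at least 36.0-fold higher. These 5 loci passed the filter through Trim28 cKO libraries only and had to differ to be tested. Their adjusted p-values therefore add no separate support. The bounds cover counting error only, as does the interval that follows. Gm38948 had 2 control counts against 160, a ratio of 70.8 after scaling (95% exact interval 19.3 to 590). It was also under the filter in all control libraries and had to differ to be tested. Its gene overlaps Bicra, a chromatin remodelling gene, on the opposite strand, which had a log2 fold change of 0.04.

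The other 4 of the 10 were measured in control ovaries as well. AC154806.2 was at 1.46, 0.816 and 0.310 CPM in control and 45.3, 84.9 and 59.6 CPM in Trim28 cKO libraries, a log2 fold change of 6.21 ± 0.53 (adjusted p = 0.000382), or 6.93 without control replicate 1. AC158972.2 was at 0.0513, 0.0816 and 0.0664 CPM and at 5.87, 6.30 and 5.46 CPM, with a log2 fold change of 6.43 ± 0.31 (adjusted p = 0.000114). Its libraries agreed closely within each group. Its nearest protein-coding gene, Angpt1, which encodes a ligand of the endothelial receptor TIE2, lay 223421 bases away and fell (log2 fold change -1.30, adjusted p = 0.0158). 2410018L13Rik was at 0.0256, 0 and 0.310 CPM and at 10.5, 4.20 and 8.18 CPM (log2 fold change 5.85 ± 0.89, adjusted p = 0.00271). Its 15 control counts came almost all from control replicate 3, and the log2 fold change was 8.66 without that library. Gm42851, of 1 exon, was at 0.0513, 0.0816 and 0.111 CPM and at 4.49, 6.26 and 3.93 CPM (log2 fold change 5.84 ± 0.40, adjusted p = 0.000199). AC158972.2 and Gm42851 were under the filter in all control libraries, so they too had to differ to be tested.

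**Figure D2:**
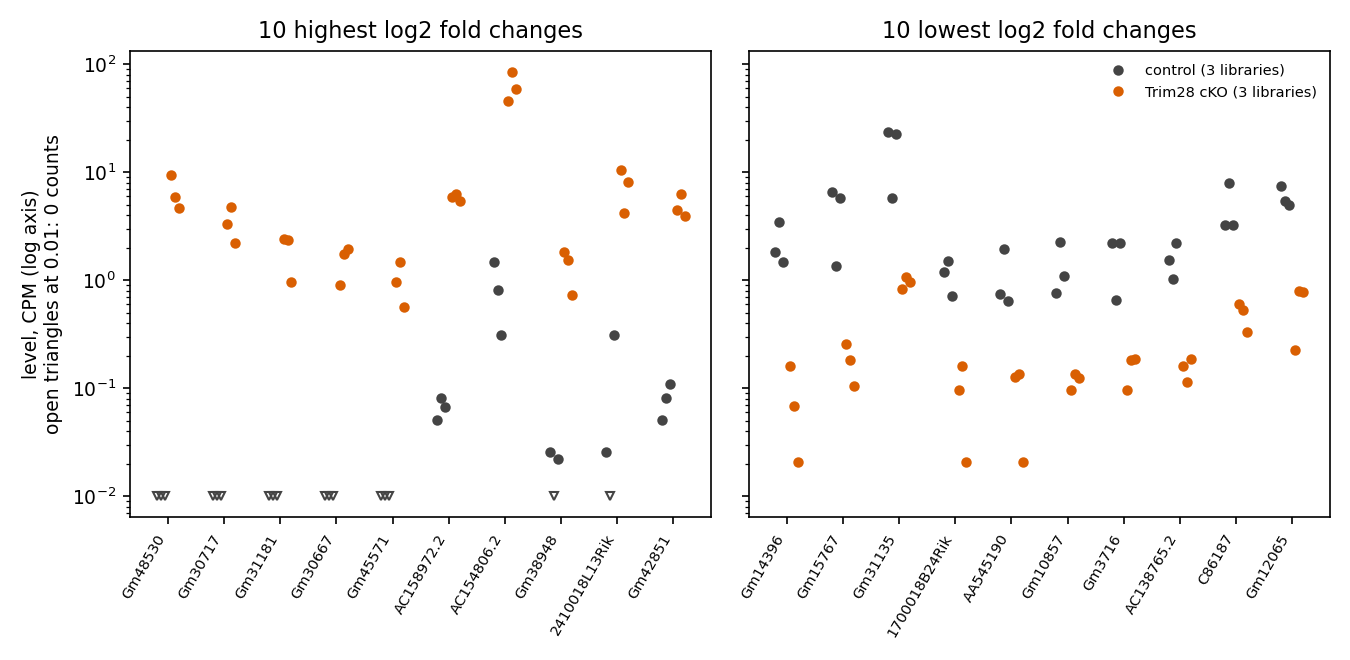
Level in CPM on a log axis for the 10 highest (left) and 10 lowest (right) log2 fold changes among called lincRNA loci with groups that did not overlap and a group mean of at least 1 CPM. Each point is 1 library, 3 control (grey) and 3 Trim28 cKO (orange), and open triangles mark libraries with 0 counts. Gm48530, Gm30717, Gm31181, Gm30667 and Gm45571 had no control counts, and Gm31135 fell from 23.7, 5.76 and 22.7 CPM to about 1 CPM.

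Some risers varied among Trim28 cKO ovaries. Gm6093, named after its values were seen, was at 2.05, 4.53 and 1.90 CPM in control and 175, 34.0 and 64.8 CPM in Trim28 cKO libraries (log2 fold change 5.05 ± 0.71, adjusted p = 0.00205, and 4.16 without Trim28 cKO replicate 1). It overlaps Gm47916 on the other strand, which had 1 control count and 86 Trim28 cKO counts. The library kit marks strand, but the sources used here do not state whether the counting used it. Xist and its antisense partner Tsix had 272899 and 3 counts in total. AW112010, also named after its values were seen, was at 6.28, 10.0 and 7.26 CPM and at 16.8, 30.5 and 80.8 CPM (log2 fold change 2.45 ± 0.56, adjusted p = 0.0136). The log2 fold change was 1.60 without Trim28 cKO replicate 3, and the call was lost without control replicate 1 (adjusted p = 0.0535). It was highest in Trim28 cKO replicate 3, where the 9 lymphocyte markers also had their highest sum (33.2, 49.5 and 81.7 CPM in replicates 1 to 3), and the part of those cells was not tested.

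The 10 lowest log2 fold changes were all of measurable level in control ovaries. Gm31135, a locus of 6 exons on chromosome 8 at 8044577 to 8484730 (minus strand), was at 23.7, 5.76 and 22.7 CPM in control and 0.834, 1.07 and 0.962 CPM in Trim28 cKO libraries. Control replicate 2 was low, but all controls were above all Trim28 cKO libraries (log2 fold change -4.18 ± 0.56, adjusted p = 0.00159). Its nearest protein-coding gene, Efnb2, which encodes the transmembrane ligand ephrin B2, had a log2 fold change of -0.49 (adjusted p = 0.0349). Gm15767 was at 6.57, 1.35 and 5.82 CPM and at 0.256, 0.183 and 0.105 CPM (log2 fold change -4.68 ± 0.70, adjusted p = 0.00259). It lies 8300 bases from Pthlh, the gene of parathyroid hormone-related protein, which had a log2 fold change of -0.96 (adjusted p = 0.0324). Gm14396, beside Hoxd9, was at 1.82, 3.43 and 1.48 CPM and at 0.160, 0.0685 and 0.0209 CPM (log2 fold change -4.81 ± 0.66, adjusted p = 0.00178, and -5.57 without Trim28 cKO replicate 1).

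Of the other 7, C86187 was at 3.26, 7.96 and 3.253 CPM in control and 0.609, 0.525 and 0.335 CPM in Trim28 cKO libraries (log2 fold change -3.30 ± 0.48, adjusted p = 0.00230). Gm12065 was at 7.46, 5.47 and 5.00 CPM and at 0.224, 0.799 and 0.774 CPM (log2 fold change -3.28 ± 0.46, adjusted p = 0.00203). Gm3716 was at 2.23, 0.653 and 2.21 CPM in control libraries and AA545190 at 0.744, 1.96 and 0.642 CPM, and all their Trim28 cKO libraries were below 0.2 CPM. Together with 1700018B24Rik, Gm10857 and AC138765.2, these loci had log2 fold changes from -3.59 to -3.34 and adjusted p-values from 0.00133 to 0.00916. 1700018B24Rik was at -4.33 without Trim28 cKO replicate 2. Gm14396, 1700018B24Rik, Gm3716 and AA545190 were under the filter in all Trim28 cKO libraries, so they had to differ to be tested.

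Among the loci that fell, control replicate 2 stood apart more often than the other controls. It was the highest of the 3 by over 1.5 times in 17 of 78 and the lowest by as much in 11, against 3 and 1 for control replicate 1 and 7 and 5 for control replicate 3. The same library stood apart among all genes that fell, highest in 268 and lowest in 172 of 1523. AA545190, C86187, Gm10857 and Gm14396 were 2.83, 2.45, 2.42 and 2.08 times as high there as the mean of the other controls, while Gm15767, Gm31135 and Gm3716 were at 0.218, 0.248 and 0.294 of it. In the same libraries the 18 oocyte markers summed to 526, 947 and 453 CPM and the 6 corpus luteum markers to 13977, 6149 and 13428 CPM in control replicates 1 to 3. Whether these loci are transcribed in such cells was not tested. All 7 were still called with control replicate 2 left out, AA545190 with a log2 fold change of -2.88 in place of -3.53.

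Long noncoding RNAs with a studied function were taken from 5 lists, and 31 of their genes are among the loci. Of these 30 were tested, 5 rose and 2 fell. Among all genes tested, 13.7% rose and 8.03% fell. In the X inactivation centre, Jpx, an activator of Xist, was at 6.67, 7.23 and 6.73 CPM in control and 4.20, 3.97 and 3.56 CPM in Trim28 cKO libraries. The groups did not overlap, and the log2 fold change of -0.81 ± 0.18 (adjusted p = 0.0119) stayed inside the fold limit. Ftx, which lies beside it, was at 19.1 ± 2.00 and 15.8 ± 2.65 CPM (SD, n = 3, adjusted p = 0.237). Among 11 protein-coding genes whose products bind Xist or act in its silencing none was called. Without the fold limit 3 had an adjusted p under 0.05, Smchd1 (log2 fold change -0.54), Ythdc1 (-0.39) and Hnrnpu (-0.35). Of all protein-coding genes tested, 18.1% were lower without the limit.

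Of the nuclear RNAs, Miat fell. It was at 2.69, 3.02 and 1.97 CPM in control and 0.321, 0.411 and 0.753 CPM in Trim28 cKO libraries (log2 fold change -2.34 ± 0.39, adjusted p = 0.00404). Of 14 paraspeckle protein genes, only Sfpq was called, lower by a log2 fold change of -1.03 (adjusted p = 0.00453), and 8 including Sfpq were lower without the fold limit, among them Nono and Rbm14. Of all protein-coding genes tested, 7.80% were called lower and 18.1% were lower without the fold limit. Neat1, which the paraspeckle proteins bind, was not called. Gm42418 and Gm26917, whose sequence is shared with ribosomal RNA genes, were at 77.1 ± 12.4 and 106 ± 27.3 CPM and at 40.7 ± 3.31 and 41.0 ± 12.2 CPM (SD, n = 3). Only uniquely aligned reads were counted, so their levels are uncertain. Neither was called, with adjusted p-values of 0.112 for Gm42418 and 0.968 for Gm26917.

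**Figure D3:**
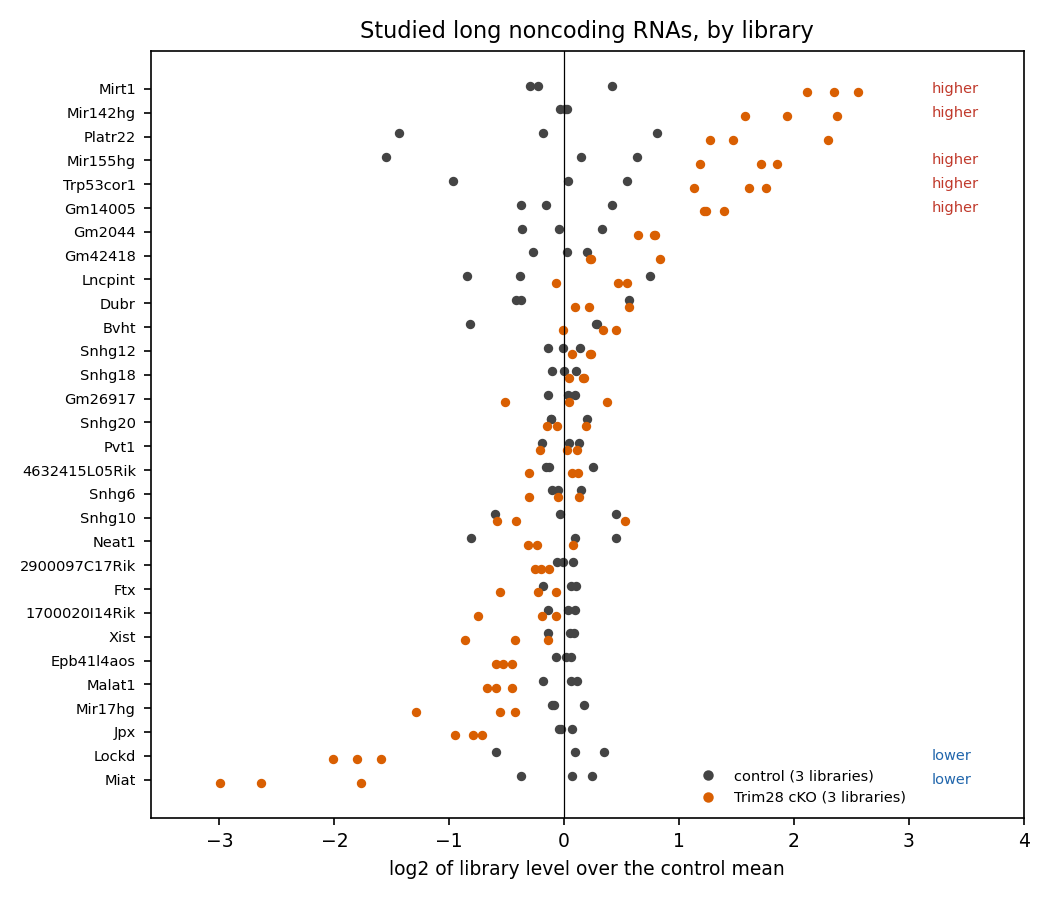
Level of each tested studied long noncoding RNA in each library, as the log2 of its CPM over the control mean, for 3 control (grey) and 3 Trim28 cKO (orange) libraries. The words at the right mark the 5 loci that rose and the 2 that fell. Lockd and Miat lie to the left in all 3 Trim28 cKO libraries and Mirt1 and Mir142hg to the right, while the Snhg host genes lie around 0.

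The hosts of small RNAs were mostly not called, as were 78.3% of all protein-coding genes tested. None of 6 host genes of small nucleolar RNAs among the loci was called (Snhg6, Snhg10, Snhg12, Snhg18, Snhg20 and Epb41l4aos, log2 fold changes from -0.52 to 0.18), of 19 tested in the whole list. RefSeq hairpins lay on the same strand within 17 of the 733 loci. Of these hosts, 2 rose, 1 fell, 13 were not called and 1 was not tested. The mature sequences (RefSeq, GRCm38.p6) are shown with the seed, bases 2 to 8, in capitals for the hosts that were called and for Gm2044, the host with an adjusted p under 0.05 and a log2 fold change inside the limit. The libraries hold polyadenylated RNA and do not measure the mature microRNAs.
mmu-miR-142a-5p: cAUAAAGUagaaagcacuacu
mmu-miR-142a-3p: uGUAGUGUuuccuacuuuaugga
mmu-miR-155-5p: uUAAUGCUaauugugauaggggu
mmu-miR-155-3p: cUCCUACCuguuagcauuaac
mmu-miR-202-5p: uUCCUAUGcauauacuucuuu
mmu-miR-202-3p: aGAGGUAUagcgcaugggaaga
mmu-miR-7686-5p: cCUUCCACuggaccuggggcugggc
mmu-miR-7686-3p: cUGCUCGGggcacuguaagaga
mmu-miR-6351: uAGCGUUGcucagggagcacaug

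No seed was shared among these 9. Gm2044 holds the hairpins of both miR-202 and miR-7686. Mir142hg, host of the blood cell microRNA miR-142, was at 1.18, 1.143 and 1.19 CPM in control and 4.49, 3.49 and 6.07 CPM in Trim28 cKO libraries. The control libraries were nearly equal and all Trim28 cKO libraries were higher (log2 fold change 1.99 ± 0.28, adjusted p = 0.00191). The summed level of the 14 macrophage markers was also lowest in Trim28 cKO replicate 2, at 3443 CPM against 6527 and 6152 CPM in replicates 1 and 3, and their part in the rise was not tested. Mir155hg, host of an immune cell microRNA, was at 0.744, 0.163 and 0.531 CPM and at 1.57, 1.74 and 1.09 CPM (log2 fold change 1.56 ± 0.50, adjusted p = 0.0450). Its call was lost when any library but control replicate 1 was left out, with adjusted p-values from 0.0567 to 0.114. 6030407O03Rik, named after its values were seen, holds Mir6351 and was at 0.821, 0.898 and 1.46 CPM and at 0.128, 0.434 and 0.146 CPM (log2 fold change -2.14 ± 0.54, adjusted p = 0.0194). Its call was lost without control replicate 3 (adjusted p = 0.0648) and without replicate 1 or 3 of the Trim28 cKO libraries (0.0532 and 0.0630), and its log2 fold change was -2.91 without Trim28 cKO replicate 2.

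Gm2044, host of the gonadal microRNA miR-202, was at 20.2, 32.6 and 25.1 CPM in control and 44.7, 44.9 and 40.5 CPM in Trim28 cKO libraries. The groups did not overlap, and the log2 fold change was 0.74 ± 0.18 (adjusted p = 0.0156). Mir17hg, host of the growth-promoting miR-17 to miR-92 cluster, was at 15.8, 16.0 and 19.2 CPM and at 6.96, 11.6 and 12.6 CPM (log2 fold change -0.71 ± 0.24, adjusted p = 0.0519). Of 25 measured genes of noncoding RNA decay and processing none was called. Dis3, Dicer1 and Drosha, nucleases of the exosome and of microRNA maturation, were among 7 with an adjusted p under 0.05 without the fold limit. Their log2 fold changes were -0.71, -0.71 and -0.51. All 7 were lower, as were 18.1% of all protein-coding genes tested without the limit.

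Of the other studied RNAs, Mirt1 had the highest log2 fold change. It was at 1.0002, 0.612 and 0.642 CPM in control and 4.42, 3.24 and 3.83 CPM in Trim28 cKO libraries (log2 fold change 2.34 ± 0.30, adjusted p = 0.00139). Trp53cor1, the p53-induced transcript also called lincRNA-p21, was at 0.898, 0.449 and 1.28 CPM and at 1.92, 2.97 and 2.68 CPM (log2 fold change 1.498 ± 0.41, adjusted p = 0.0255). This call was lost without control replicate 1 (adjusted p = 0.0779), Trim28 cKO replicate 2 (0.0723) or Trim28 cKO replicate 3 (0.0630). Gm14005, known as Morrbid, a regulator of myeloid cell survival at the Bcl2l11 locus, was at 0.949, 0.816 and 1.42 CPM and at 2.79, 2.47 and 2.49 CPM (log2 fold change 1.27 ± 0.29, adjusted p = 0.0137, and 0.0575 without control replicate 1). Bcl2l11, a pro-apoptotic gene, had a log2 fold change of 0.43 (adjusted p = 0.0227).

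Lockd, which lies 3579 bases downstream of Cdkn1b, was at 5.10, 3.18 and 6.09 CPM in control and 1.19, 1.37 and 1.59 CPM in Trim28 cKO libraries (log2 fold change -1.79 ± 0.31, adjusted p = 0.00439). Platr22 was at 0.139 ± 0.0971 and 0.468 ± 0.189 CPM (SD, n = 3) and was not called (adjusted p = 0.0605), but passed without control replicate 3 (0.0405). The remaining studied RNAs, 1700020I14Rik (Cyrano), 2900097C17Rik, 4632415L05Rik, Pvt1, Lncpint, Bvht and Dubr, had log2 fold changes from -0.31 to 0.38 and adjusted p-values from 0.123 to 0.948. Etos1 did not pass the filter, with 64, 5 and 218 counts in control and 0, 4 and 5 counts in Trim28 cKO libraries.

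In all, 21 loci were not tested, 11 with the higher mean in Trim28 cKO and 10 in control libraries. Some rested on 1 library, such as 9330199G10Rik, named after its values were seen, with 94 of its 99 counts in control replicate 3. Of the untested loci, Gm44866 and Gm48412 had 0 control counts and 66 and 69 Trim28 cKO counts, bounds of at least 19.5-fold and 20.4-fold higher. Gm35386 had 83 control counts and none in Trim28 cKO libraries, at least 31.3-fold lower. At the limit of the rule, 6 loci had exactly 60 counts, 4930558J18Rik, AC164437.4, B230312C02Rik, Gm12763, Gm31479 and Gm44837, and 11 lincRNA rows just outside it had 59. Of these, Platr1 had 0, 0 and 0 control counts and 8, 30 and 21 Trim28 cKO counts.

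The loci were set beside their nearest protein-coding gene. Within 50 kb, 136 of the called loci had such a gene. Of 85 risers, 28 had a neighbour that also rose (32.9%) and none had a neighbour that fell. Of 51 loci that fell, 12 had a neighbour that fell (23.5%) and 3 had one that rose. Among 415 loci that were not called, 37 neighbours rose (8.92%) and 16 fell (3.86%). Of all protein-coding genes tested, 13.9% rose and 7.80% fell, while the shares of neighbours also count untested ones. Called loci include those that passed the filter in 1 group only and so had to differ. The neighbour counts were not split by this. In total, 40 called loci had a neighbour called in the same direction. This count was 23 without control replicate 1, 23 within 10 kb and 48 within 500 kb. Over the 502 pairs within 50 kb, the log2 fold changes of locus and gene had Pearson's r = 0.29 and Spearman's rho = 0.31, a description of pairs that share libraries and in part genes, with fold changes against a group at 0 counts set to their bound.

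**Figure D4:**
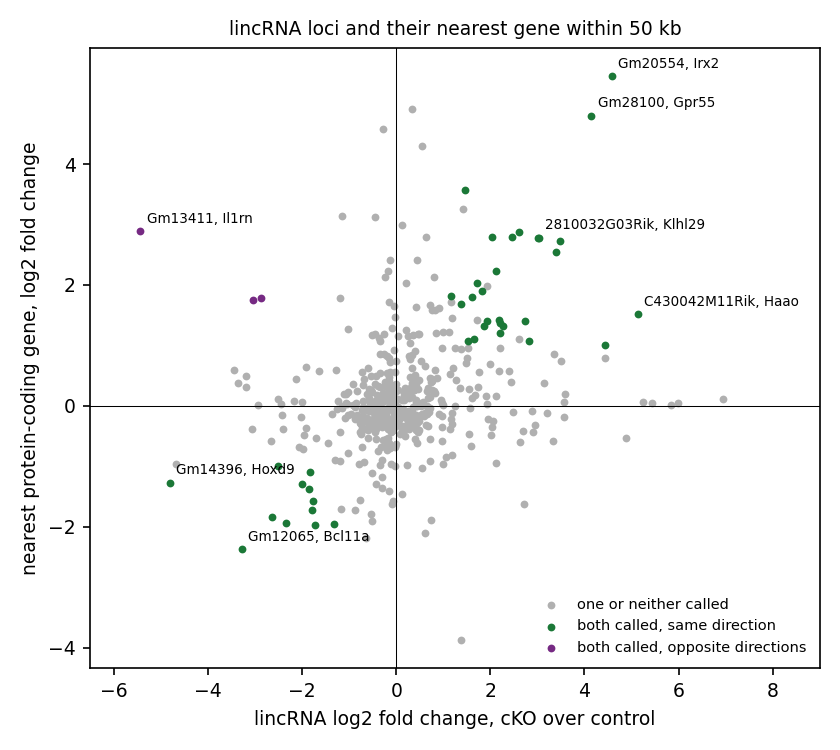
Log2 fold change, Trim28 cKO over control, of each tested lincRNA locus (x axis) and of its nearest protein-coding gene within 50 kb (y axis), 502 pairs, with genes at 0 counts in a group set to their bound. Green marks the 40 pairs called in the same direction and purple the 3 called in opposite directions. The green points lie at the upper right and lower left, with Gm20554 and Irx2 furthest out.

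Several of these pairs faced each other. Gm20554 and Irx2, an Iroquois homeobox gene, start head to head 256 bases apart on chromosome 13, at the start region shown with 3 matches to GGGCGG. Gm20554 had 0 control counts and was at 0.256, 1.39 and 0.251 CPM in Trim28 cKO libraries, at least 23.9-fold higher (adjusted p = 0.0228). Irx2 also had 0 control counts and was at 1.19 ± 0.56 CPM (SD, n = 3), at least 44.0-fold higher (adjusted p = 0.00247). Both passed the filter through Trim28 cKO libraries only and had to differ to be tested. 2810032G03Rik and Klhl29, 188 bases apart, went from 0.256, 0.327 and 0.221 CPM to 2.31, 1.94 and 2.28 CPM (log2 fold change 3.03 ± 0.30, adjusted p = 0.000584) and from 5.29 ± 2.37 to 36.0 ± 3.76 CPM (log2 fold change 2.78). Gm15234 and Tuft1 lay 89 bases apart, Gm12474 and Fam46c 340 and Gm29367 and Efhd2 787, and in each of these head-to-head pairs, named after their values were seen, both rose. In the remaining pairs of this kind, Gm21817 with Irx5 and D630033O11Rik with Oaf, also named after their values were seen, both fell. The calls of Gm15234, Gm12474, Gm29367, Gm21817 and D630033O11Rik were each lost when certain single libraries were left out, with adjusted p-values up to 0.103.

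Other pairs lay on 1 strand. C430042M11Rik, upstream of Haao, an enzyme of tryptophan breakdown, was at 0.256, 0.0816 and 0.199 CPM in control and 7.63, 7.92 and 4.56 CPM in Trim28 cKO libraries (log2 fold change 5.13 ± 0.43, adjusted p = 0.000373). Haao also rose (log2 fold change 1.52 ± 0.36, adjusted p = 0.0159). Gm28100 had 3 control counts and 64 Trim28 cKO counts, a ratio of 18.9 (95% exact interval 6.18 to 94.0), and Gpr55, a receptor of lysophospholipids 11358 bases away, rose from 1.08 ± 0.45 to 31.0 ± 7.59 CPM. Gm13293 (3 and 76 counts, ratio 22.4, 95% exact interval 7.39 to 111) and Prkcq, a protein kinase C, both rose, as did Gm19792 and Gm3604 on chromosome 13 (log2 fold changes 3.48 and 2.73). Without control replicate 3 the log2 fold changes of Gm19792, Gm28100 and Gm13293 were 5.44, 4.83 and 7.60. All of these loci were under the filter in every control library, so they had to differ to be tested. Counted by arrangement, pairs called in the same direction made up 7 of 31 called loci head to head with their neighbour, 7 of 25 tail to tail, 10 of 30 downstream and 11 of 32 upstream of it on the same strand, and 5 of 16 that overlap it on the opposite strand.

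Among the loci that fell with their neighbour, Gm14396 lies 362 bases upstream of Hoxd9, a homeobox gene that fell from 32.0 ± 7.17 to 13.2 ± 2.09 CPM (log2 fold change -1.27 ± 0.20, adjusted p = 0.00315). Gm12065 and Bcl11a, a zinc finger repressor gene 24614 bases away that fell from 22.03 ± 1.83 to 4.24 ± 0.71 CPM, lie tail to tail. Lockd fell with Cdkn1b, a cell cycle inhibitor gene (353 ± 111 and 107 ± 22.03 CPM, log2 fold change -1.72). Gm26735, named after its values were seen, overlaps Sox4 on the opposite strand, and both fell (log2 fold changes -1.76 and -1.57). Its call was lost without control replicate 3 or Trim28 cKO replicate 2 (adjusted p-values of 0.0626 and 0.0533). The 3 pairs that moved apart were Gm13411 with Il1rn, the interleukin 1 receptor antagonist (-5.44 and 2.89), D930028M14Rik with Pou2f2 (-3.05 and 1.76) and Gm1070 with Smyd1 (-2.87 and 1.79). Gm13411 had 97 control and 2 Trim28 cKO counts (ratio 54.8, 95% exact interval 14.8 to 459), and D930028M14Rik had 100 and 12. Both were under the filter in all Trim28 cKO libraries, so they had to differ to be tested. The call of D930028M14Rik was lost without control replicate 1 (adjusted p = 0.0842), Trim28 cKO replicate 2 (0.0640) or Trim28 cKO replicate 3 (0.0709).

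Features of the loci that the rule did not use are given as descriptions, with no test. Of the 733 loci, 361 matched a RefSeq window by symbol. Those with a start within 1000 bases of the gene's start in the table numbered 50 risers, 35 fallers and 207 that were not called. Their median ratio of observed to expected CpG was 0.257, 0.280 and 0.505, against 0.735 in 10961 windows of tested protein-coding genes. GGGCGG was present in 24.0%, 25.7% and 43.0% of them, and in 61.8% of the protein-coding windows. TATAAA was present in 8, 5 and 23 windows (16.0%, 14.3% and 11.1%) and AGATAA in 4, 6 and 21 (8%, 17.1% and 10.1%). AAGGTCA was present in 4, 1 and 14, TGTTTAC in 3, 1 and 7 and ACAATGG in 1, 3 and 4 windows, beside 4.05%, 2.81% and 2.76% of all windows. Single-exon loci made up 6.11% of risers, 5.13% of fallers and 16.4% of loci not called, and each class had a median of 3 exons in its longest annotated transcript. Median transcript lengths were 1188, 1529 and 1369 bases.

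**Figure D5:**
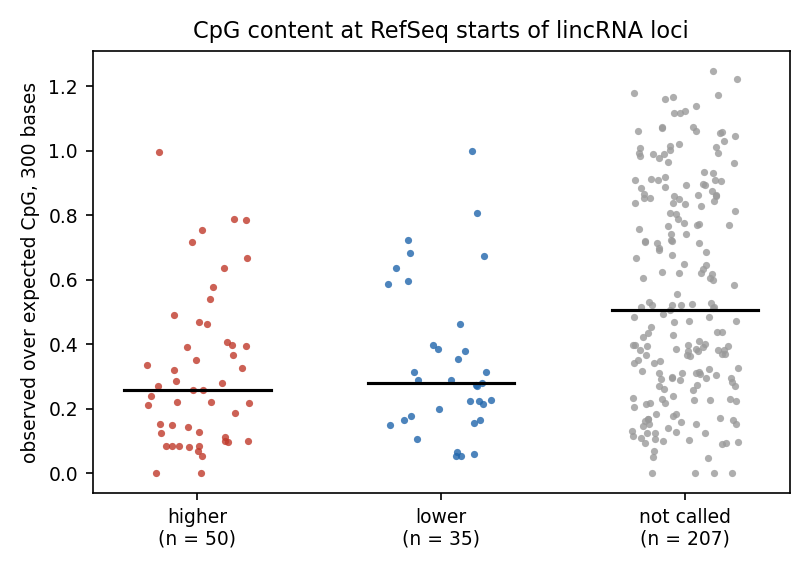
Ratio of observed to expected CpG in the 300 bases around the RefSeq start of lincRNA loci that rose (n = 50), fell (n = 35) or were not called (n = 207) in Trim28 cKO ovaries. Each point is 1 locus and the black bars are medians, at 0.257, 0.280 and 0.505, and the loci not called spread over the whole range.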

How the data were processed

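RNA-seq libraries of polyadenylated, strand-marked RNA were used, 3 from control and 3 from Trim28 cKO ovaries. Per the study's methods and the submitters' processing notes, reads were demultiplexed with bcl2fastq 2.17.1.14, aligned to mm10 with STAR 2.5.3a, and those that aligned uniquely were counted by Ensembl gene with HTSeq 0.6.1p1. The authors deposited these counts unscaled. The deposited normalized signal is the count divided by 1 size factor per library, and a second deposited signal divides it by the median transcript length in kb. This second signal was used only to order levels between loci. The authors also deposited their own DESeq2 1.16.1 comparison, with a log2 ratio, a p-value and its adjusted form for each gene, and these were not used.

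Genes passing filterByExpr (minimum count 10, minimum total 15) were TMM-scaled and tested by edgeR 4.0.16 (R 4.3.3) with its quasi-likelihood F-test, robust fit. CPM are TMM-scaled. Floors of 3 counts are over a group. Nearest genes are by gene interval in the deposited table, with strand and exons from GENCODE M21. Start windows and microRNAs are from RefSeq (GRCm38.p6). Further steps used Python 3.11.15, pandas 2.3.3, scipy 1.17.1 and matplotlib 3.10.9.

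The loci, gene lists and tests were chosen with earlier results of these data known. Named loci are the list members, the 10 of highest signal per kb, the 10 highest and 10 lowest log2 fold changes as described, loci at 0 counts in a group, loci at the count limit and, at each end, 5 called loci with a called neighbour within 50 kb. Others, including the facing pair of 2810032G03Rik, Gm47916 and the remaining windows shown or searched, were named after their values were seen. The labels number 3 libraries for each group, and the study calls the libraries independent. Taking each library as a separate mouse is an assumption. Alternatives are given in the closing section.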

Additional observations from a re-analysis of the deposited data

How the results depend on the processing

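Counts of loci that rose, that fell and that had a neighbour called the same way were 131, 78 and 40. They were 68, 38 and 17 under a stricter filter (1 CPM in 3 libraries), 70, 44 and 11 with glmTreat, which tests whether a change exceeds the limit, and 72, 50 and 16 at an adjusted p of 0.01. The first count was 80 and the second 50 among genes over the filter in both groups, an alternative chosen after seeing the data. Without a fold limit 64 neighbours matched, and 23 within 10 kb. With 1 library left out the counts ranged from 95 to 119, 58 to 78 and 23 to 35. DESeq2 size factors, library size alone, no filter, DESeq2 1.42.0, limma-voom and the remaining settings kept all counts within 1.5 times. The labels do not say what the replicate numbers stand for. Deviations of same-numbered libraries from their group means had correlations of -0.07, 0.06 and -0.17. Those of differently numbered libraries ranged from -0.16 to 0.23. With 3 libraries per group this check cannot exclude pairing. With the replicate number as a block the counts were 110, 70 and 34. Of 51 called loci named in the text, 15 lost their call under some alternative that tested them, Mir155hg, Trp53cor1, Gm14005, Gm20554, D930028M14Rik, Gm31479, 6030407O03Rik, D630033O11Rik, Gm26735, Gm21817, Gm29367, 9330175E14Rik, Gm15234, Gm12474 and AW112010. The stricter filter removed 24 of the 51, so they have no call there, and Gm20554, Gm12763 and D930028M14Rik were not tested without some libraries. None of the 82 tested turned direction while called. With 3 libraries per group and a median of 0.976 CPM, small differences of low loci were not detectable at this depth.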
